A study of Mus musculus with 16 samples.

Results

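The Igf2bp family of RNA-binding proteins was followed through early B-lineage development in the fetus and in the adult. Its 3 genes, Igf2bp1, Igf2bp2 and Igf2bp3, were found by the RefSeq entry, clone name or product name that the array's annotation gives each probe. They were covered by 7 of 41174 probes, and all 3 genes were among the 21660 genes and unnamed transcripts that could be tested. There were 4 groups of BALB/c wild-type cells: pro-B cells (fraction B/C, Fr.B/C) and the preceding pre-pro-B cells (fraction A, Fr.A) of fetal liver, and Fr.B/C and Fr.A of adult bone marrow. The fetal cells came from the pooled livers of a litter's embryos, 8 on average, at day 16 of gestation, and the adult cells from the pooled marrow of 16 female mice. Each tissue was sorted 4 times, and each sort supplied a pair of samples (Fr.B/C and Fr.A), so every group had 4 arrays. Each sample was hybridised on a 2-colour array against the same reference RNA, taken from 6 cell lines. Values are therefore log2 ratios of sample over reference.

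IGF2BP proteins bind messenger RNAs in the cytoplasm and control where, for how long and how well these are translated. They take their name from the mRNA of the growth factor Igf2, and they also read N6-methyladenosine marks. All 3 are best known from embryonic tissue: Igf2bp1 and Igf2bp3 are largely silent in adult tissues, while Igf2bp2 stays on in many of them. Their mRNAs are known targets of the let-7 microRNAs, whose maturation is blocked by Lin28b, the fetal protein named in the series title.

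The let-7 family is shown here because it connects Lin28b with the Igf2bp genes. The arrays did not measure microRNAs. Members pair with their targets through the seed, bases 2 to 8, and 11 mature mouse microRNAs in the RefSeq table (GRCm38.p6) share the same seed. Capitals mark the seed in 4 of them, which differ outside it. They lie at chr13:48538239-48538260 and chr13:48536078-48536099 on the minus strand (let-7a and let-7d), and at chr9:106178846-106178867 and chrX:151913229-151913250 on the plus strand (let-7g and miR-98).
mmu-let-7a-5p: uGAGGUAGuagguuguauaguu
mmu-let-7d-5p: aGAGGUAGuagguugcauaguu
mmu-let-7g-5p: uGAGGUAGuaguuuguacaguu
mmu-miR-98-5p: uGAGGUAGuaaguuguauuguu

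The promoters of Igf2bp3 and Igf2bp2 are shown because these genes took different courses with stage in bone marrow. Both windows run from 250 bases before to 50 bases after the gene start in RefSeq (GRCm38.p6), and 2 of the 3 genes matched the table. The Igf2bp3 window lies on the minus strand at chr6:49214905-49215204, and capitals mark each CACGTG, a palindrome that reads the same on both strands and is a form of the E-box.
Igf2bp3: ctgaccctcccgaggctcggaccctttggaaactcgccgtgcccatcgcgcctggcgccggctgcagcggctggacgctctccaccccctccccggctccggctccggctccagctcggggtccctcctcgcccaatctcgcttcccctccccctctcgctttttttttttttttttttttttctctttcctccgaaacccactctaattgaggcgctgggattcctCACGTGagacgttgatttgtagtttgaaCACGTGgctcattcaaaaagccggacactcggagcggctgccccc
Igf2bp2: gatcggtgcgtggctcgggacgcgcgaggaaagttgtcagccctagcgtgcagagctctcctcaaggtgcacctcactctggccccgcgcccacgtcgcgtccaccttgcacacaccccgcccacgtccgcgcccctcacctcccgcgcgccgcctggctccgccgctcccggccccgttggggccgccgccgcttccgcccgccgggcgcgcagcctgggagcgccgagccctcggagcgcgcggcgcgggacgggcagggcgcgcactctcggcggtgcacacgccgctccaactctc
The Igf2bp2 window, at chr16:22163250-22163549 on the minus strand, does not hold these letters. Of 32851 promoter windows of 300 bases, 2349 (7.15%) held CACGTG at least 1 time and 195 (0.594%) at least 2 times, as the Igf2bp3 window does. The G and C bases made up 60.3% of the Igf2bp3 window and 76.7% of the Igf2bp2 window, against a median of 52.7% over all windows. The match is a description of the letters and not of a factor's binding.

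The arrays differed moderately in brightness, with a median sample signal of 71.2 to 162 (intensity) and 52.9% to 68.3% of probes well above background. Within each group, arrays 1 and 2 resembled each other, as did arrays 3 and 4, by their deviations from the group mean with the dye effect removed. This was weakest for fetal liver Fr.A arrays 1 and 2 (r = -0.05 across genes). Arrays of different sets in that group were at -0.53 to -0.72. All bone marrow arrays were scanned on other dates than the fetal liver arrays, so tissue and scan date cannot be told apart. Precision is limited by having 4 arrays in a group. The labels name 4 sorts, but whether the arrays of a set (1 and 2, or 3 and 4) share a sort was not tested, and if they do, a group has 2 separate samples and the p-values measure partly technical spread. The sorted cells carried their lineage's transcripts: 13 of 14 B-lineage markers on the array were well above background on at least 3 of 4 arrays in every group. Pax5, the factor that commits cells to the B lineage, was named after its values were seen: no array of fetal liver Fr.B/C or of bone marrow Fr.A had it well above background. No Pax5 probe passed the filter for testing, so no difference between groups can be read from this.

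All 3 family genes were higher in fetal liver than in bone marrow at both stages. In Fr.A the log2 difference was 3.40 ± 0.14 for Igf2bp1, 2.96 ± 0.11 for Igf2bp2 and 4.23 ± 0.22 for Igf2bp3 (SE, n = 4 and 4 arrays; limma adjusted p = 1.65e-10, 4.25e-11 and 2.27e-09). These fitted changes ranked 4, 12 and 2 from the top of 21660 genes, where the values and ranks of Igf2bp1 at both stages rest on bone marrow signals not well above background. Of all genes, 29.6% were called (12.3% higher and 17.3% lower). On the brightest probe Igf2bp3 was thus 18.8-fold and Igf2bp2 7.78-fold higher. The size depended on the probe. The other Igf2bp3 probes gave 14.6-fold (A_51_P302336) and 4.21-fold (A_52_P271232) in Fr.A, and 5.56-fold and 1.85-fold in Fr.B/C. In Fr.B/C the difference was 3.50 ± 0.14 for Igf2bp1, 1.22 ± 0.11 for Igf2bp2 and 2.23 ± 0.22 for Igf2bp3 (limma adjusted p = 8.24e-11, 7.27e-07 and 2.25e-06), with ranks of 9, 244 and 47 and 28.6% of genes called (13.9% higher and 14.7% lower). The fetal and adult arrays did not overlap for any member at either stage, which was also true of 26.3% of all genes in Fr.A cells and 29.5% in Fr.B/C cells. In sorted bulk samples, fewer cells of a type and less RNA per cell cannot be told apart.

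**Figure D1:**
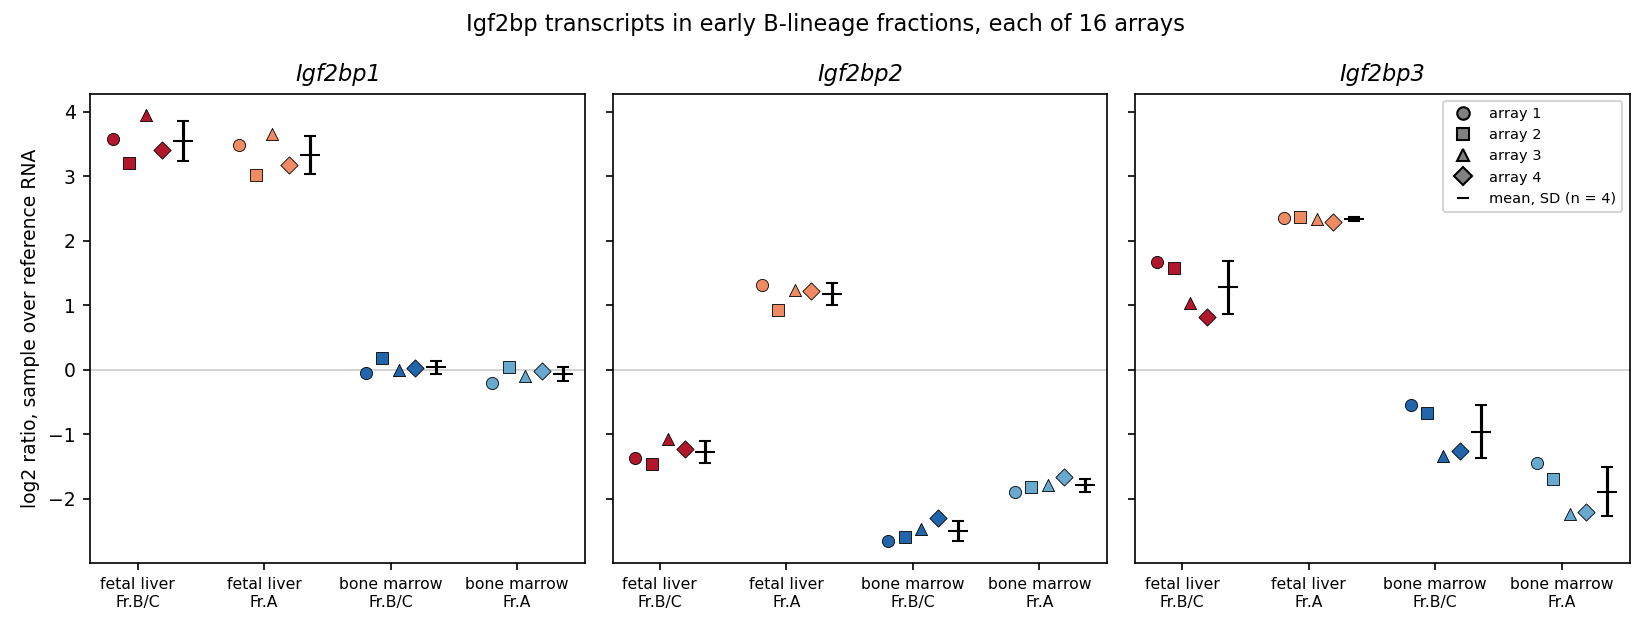
Log2 ratio of sample over reference RNA (y axis) on each of the 16 arrays for the brightest probe of each gene, with the mean and SD of the 4 arrays of a group in black. Igf2bp1 sits above 3 in both fetal liver fractions and near 0 in bone marrow, Igf2bp2 is highest in fetal liver Fr.A at 0.92 to 1.31, and the Igf2bp3 fractions lie in opposite order in fetal liver and bone marrow.

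Igf2bp1, which stabilises mRNAs such as that of Myc and carries beta-actin mRNA in migrating cells and neurons, was well above background on its brightest probe only in the fetus. Its log2 ratio was 3.57, 3.21, 3.95 and 3.41 on fetal liver Fr.B/C arrays 1 to 4, and 3.48, 3.01, 3.66 and 3.17 on fetal liver Fr.A arrays 1 to 4. In bone marrow it was -0.05, 0.18, 0.00 and 0.03 in Fr.B/C and -0.21, 0.04, -0.10 and -0.02 in Fr.A. The sample signal was well above background on all 8 fetal liver arrays, at 5030 to 9220 (intensity), and on none of the 8 bone marrow arrays, at 32.0 to 51.6. The fold on this probe is for that reason a lower bound: fetal liver was at least 10.2-fold above bone marrow in Fr.A and at least 10.7-fold in Fr.B/C. The probe A_52_P295950 gave at least 12.5-fold and at least 12.3-fold. The probe A_52_P620742, well above background on 1 of 4 bone marrow Fr.A arrays, gave 5.06-fold in Fr.A and at least 7.96-fold in Fr.B/C.

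The reference signal of the brightest Igf2bp1 probe also differed between the tissues. It was well above background on all 8 fetal liver arrays, at 209 to 457, and on none of the bone marrow arrays, at 37.8 to 55.2, although the reference RNA was the same by its label. The ratio therefore spans less than the sample channel does: on the sample channel alone the differences were 4.14 in Fr.A cells and 4.42 in Fr.B/C cells (log2), an alternative chosen after seeing the data. The probe A_52_P295950 of the same gene had a reference signal of 64.3 to 142 on fetal liver arrays and 25.0 to 49.2 on bone marrow arrays. The third probe, A_52_P620742, had no such split, at 27.4 to 87.6 on fetal liver arrays (2 of 8 well above background) and 37.8 to 79.4 on bone marrow arrays (1 of 8). Igf2bp2 and Igf2bp3 also had none on their brightest probes, with reference signals of 2870 to 5040 on fetal liver arrays and 3480 to 4920 on bone marrow arrays for Igf2bp2, and 2080 to 4120 and 2080 to 3570 for Igf2bp3. Why the reference channel differed on 2 of the 3 Igf2bp1 probes was not tested.

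**Figure D2:**
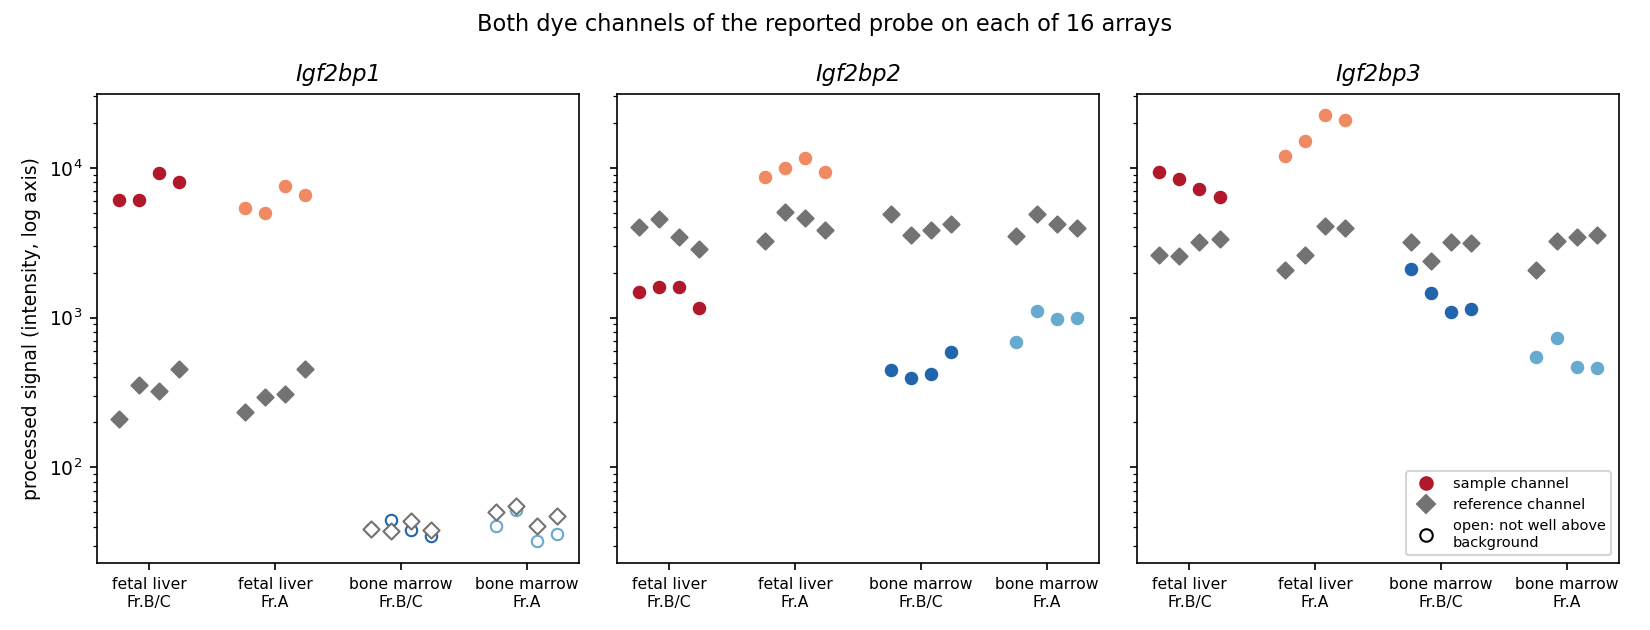
Processed signal (intensity, log axis) in the sample channel (circles) and the reference channel (diamonds) on each array for the brightest probe of each gene, with open symbols where the signal was not well above background. For Igf2bp1 both channels are open on all 8 bone marrow arrays, at 32.0 to 55.2, and filled on all 8 fetal liver arrays, while the reference channels of Igf2bp2 and Igf2bp3 overlap between tissues.

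On its brightest probe Igf2bp1 did not pass between the stages. Fr.B/C minus Fr.A in fetal liver was 0.20 ± 0.14 (95% interval -0.10 to 0.51, limma adjusted p = 0.362), and the 4 same-numbered pairs gave 0.09, 0.20, 0.30 and 0.23. With the sort as a replicate block the same 0.20 passed (limma adjusted p = 0.0429), so this call depends on the pairing, and with array sets averaged it did not pass (limma adjusted p = 0.474). The bone marrow fractions were both below background and give no step. Its probes differed in the fetal step: A_52_P295950 gave -0.01 ± 0.10 and A_52_P620742 gave 0.75 ± 0.16 (limma adjusted p = 0.976 and 0.00318 over all probes). In the array's own annotation, whose genome build the files do not name, these probes lie at chr11:95784300-95784359 (the brightest), chr11:95779186-95779245 and chr11:95783278-95783337 on the minus strand. The third was named only through the product name in its description.

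Igf2bp2, the member tied to metabolism and to the growth of muscle and fat in mice, was highest in fetal pre-pro-B cells and fell at the Fr.B/C stage in both tissues. Its log2 ratio was -1.36, -1.46, -1.07 and -1.23 on fetal liver Fr.B/C arrays 1 to 4, against 1.31, 0.92, 1.24 and 1.22 in fetal liver Fr.A. In bone marrow it was -2.65, -2.59, -2.46 and -2.30 in Fr.B/C, against -1.89, -1.81, -1.79 and -1.66 in Fr.A. No group overlapped another, and between unlike fractions 39.6% (fetal liver Fr.B/C and bone marrow Fr.A) and 31.5% (fetal liver Fr.A and bone marrow Fr.B/C) of all genes had groups apart. The fall was 2.45 ± 0.11 in fetal liver on the log2 scale (limma adjusted p = 3.18e-10), which ranked 63 from the bottom of all genes, and 0.71 ± 0.11 in bone marrow (limma adjusted p = 0.000122). Of all genes, 22.8% were called at this step in fetal liver (10.1% higher and 12.8% lower), 32.4% in bone marrow (13.5% higher and 18.8% lower), and 8.80% were called lower in both.

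The fetal fall of Igf2bp2 was the larger. The difference between the tissues' steps was -1.74 ± 0.16 (95% interval -2.07 to -1.40, limma adjusted p = 1.18e-05), with 7.48% of genes called in this interaction (4.47% higher and 3.01% lower). The interaction calls were 1620 genes, and 3533 with the sort as a replicate block, where Igf2bp2 kept -1.74 (limma adjusted p = 3.74e-06). The 4 groups ran from fetal liver Fr.A (1.17 ± 0.17, SD, n = 4) through fetal liver Fr.B/C (-1.28 ± 0.17) and bone marrow Fr.A (-1.79 ± 0.10) to bone marrow Fr.B/C (-2.50 ± 0.16). Each neighbour in that order differed. The closest pair, fetal liver Fr.B/C and bone marrow Fr.A, stood 0.51 ± 0.11 apart (limma adjusted p = 0.00134, with 44.2% of genes called between these groups, 19.4% higher and 24.8% lower). A single probe, at chr16:20832433-20832493 on the minus strand in the array's annotation and listed under an older clone name, measured this gene.

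Igf2bp3, an oncofetal protein whose human counterpart is a marker of several cancers and of some B-cell leukaemias, went in opposite directions at the Fr.B/C stage. In fetal liver its log2 ratio was 1.67, 1.57, 1.04 and 0.82 on Fr.B/C arrays 1 to 4, against 2.35, 2.36, 2.33 and 2.29 in Fr.A. In bone marrow it was -0.55, -0.67, -1.34 and -1.26 in Fr.B/C, against -1.45, -1.69, -2.23 and -2.20 in Fr.A. The Fr.B/C arrays lay below all Fr.A arrays in fetal liver and above all of them in bone marrow. Groups were this far apart for 24.1% of all genes in fetal liver and 29.6% in bone marrow.

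The step was -1.06 ± 0.22 in fetal liver (limma adjusted p = 0.00248) and 0.94 ± 0.22 in bone marrow (limma adjusted p = 0.00413), a fetal level at 0.480 of that in Fr.A and an adult level 1.92-fold higher. Of all genes, 28 (0.129%) were called higher in bone marrow and lower in fetal liver at this step. The interaction was -2.0 ± 0.32 (95% interval -2.67 to -1.32, limma adjusted p = 0.0011), ranking 13 from the bottom. Same-numbered pairs gave -0.69, -0.79, -1.29 and -1.47 in fetal liver and 0.91, 1.02, 0.89 and 0.94 in bone marrow. Fetal arrays 3 and 4 had the larger fall, with -1.38 between their means against -0.74 for arrays 1 and 2. When arrays 1 and 2, and 3 and 4, of a group were averaged, the steps kept -1.06 and 0.94 but did not pass (limma adjusted p = 0.103 and 0.102), nor did the interaction of -2.0 (limma adjusted p = 0.171). All fetal liver pairs and bone marrow pairs 2 to 4 were scanned on 1 date each. With scan date as a fixed block, chosen after seeing the data, the steps were -1.06 in fetal liver and 0.93 in bone marrow (limma adjusted p = 8.43e-06 and 5.69e-05).

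**Figure D3:**
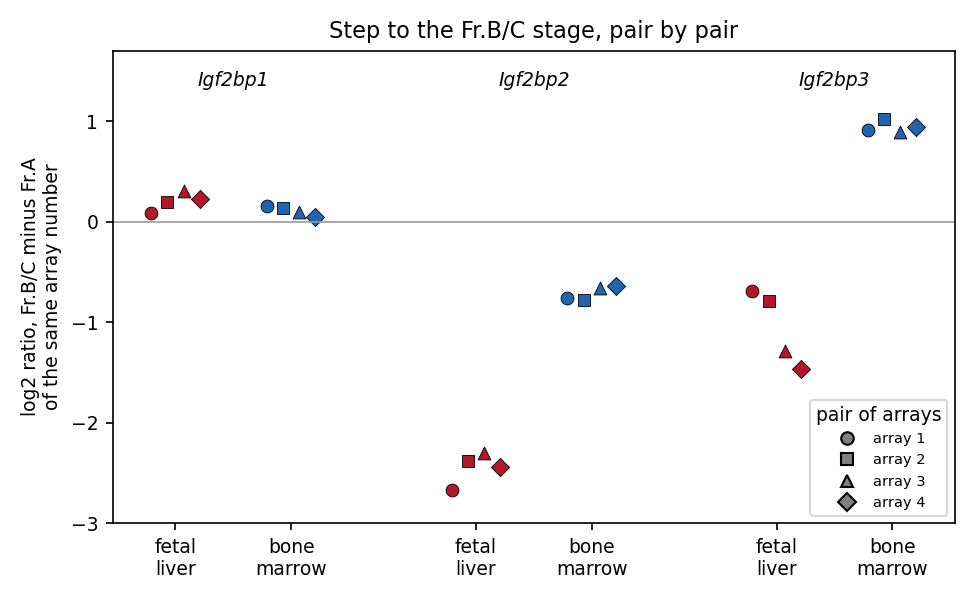
Log2 ratio of Fr.B/C minus Fr.A for each pair of arrays with the same number (y axis), in fetal liver (red) and bone marrow (blue). For Igf2bp3 all 4 fetal liver pairs lie below 0, from -0.69 to -1.47, and all 4 bone marrow pairs lie above it, from 0.89 to 1.02, while both tissues lie below 0 for Igf2bp2.

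All 3 probes of Igf2bp3 had these signs. The fetal step was -0.72 ± 0.16 on A_51_P302336 and -0.82 ± 0.16 on A_52_P271232 (limma adjusted p = 0.00383 and 0.00158 over all probes). The bone marrow step was 0.68 ± 0.16 and 0.37 ± 0.16 on the same probes (limma adjusted p = 0.004 and 0.0971), so that of A_52_P271232 did not pass. That probe was well above background on 1 of 4 bone marrow Fr.A arrays. The interaction passed on both, at -1.39 ± 0.23 and -1.19 ± 0.23 (limma adjusted p = 0.00156 and 0.00525 over all probes). The array's annotation places the brightest probe at chr6:49219149-49219208 and the others at chr6:49221288-49221895, a span of 608 bases, and chr6:49240846-49240905, all on the minus strand.

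**Figure D4:**
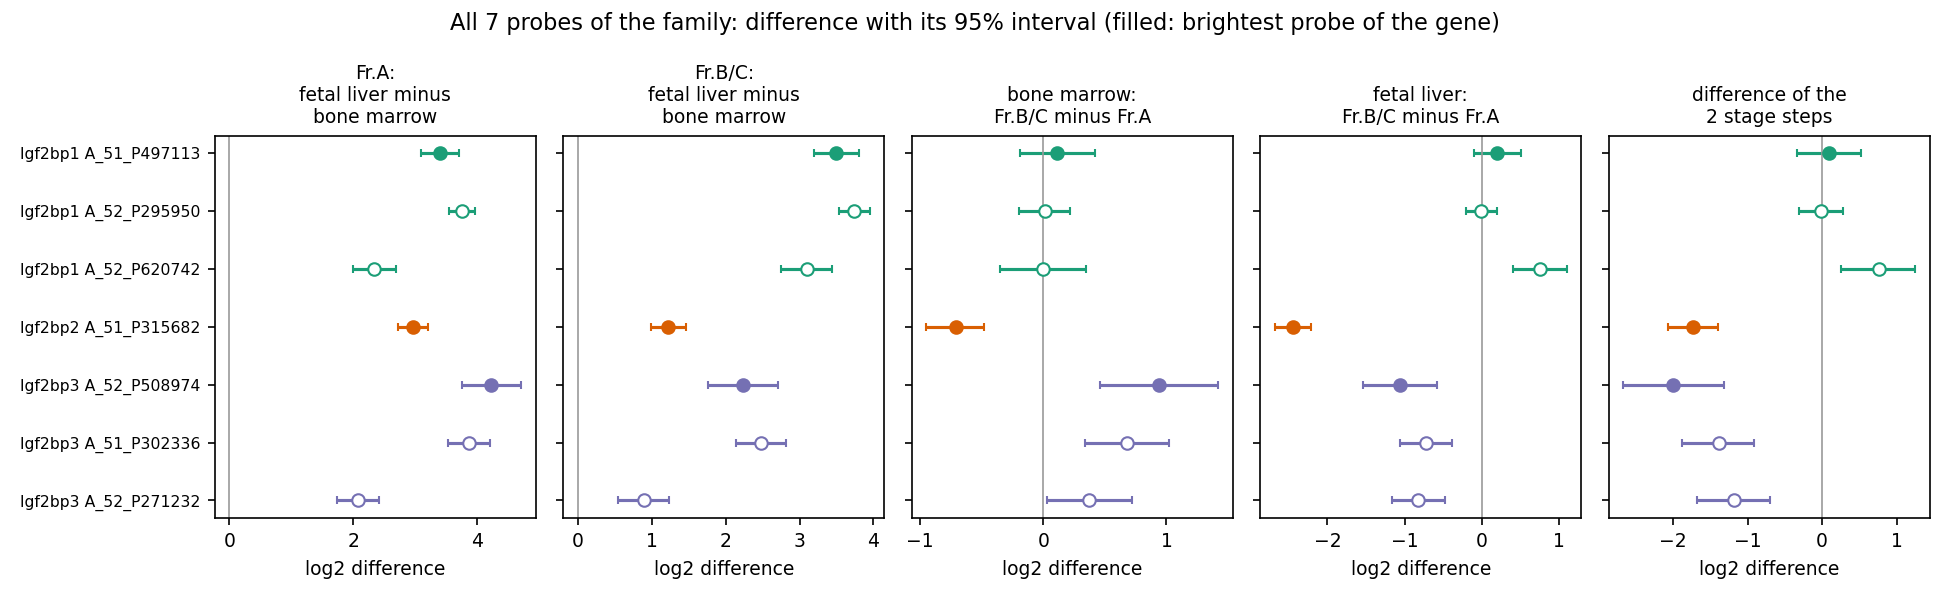
Log2 difference with its 95% interval (x axis) for each of the 7 probes in the 4 comparisons and in the interaction, with the brightest probe of a gene filled. All 7 probes lie above 0 in both tissue comparisons, and the Igf2bp3 probes lie above 0 in the bone marrow step and below 0 in the fetal liver step.

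Igf2bp3 ran in the order fetal liver Fr.A (2.33 ± 0.03, SD, n = 4), fetal liver Fr.B/C (1.28 ± 0.41), bone marrow Fr.B/C (-0.96 ± 0.41) and bone marrow Fr.A (-1.89 ± 0.38), each apart from its neighbour. Igf2bp1 had fetal liver Fr.B/C (3.54 ± 0.31) and Fr.A (3.33 ± 0.29) at its top, which overlapped. Across the 16 arrays Igf2bp1 correlated with Igf2bp3 at r = 0.93 and with Igf2bp2 at 0.73, and Igf2bp2 with Igf2bp3 at 0.80, as descriptions that rest mainly on the gap between tissues. Within a tissue the picture split: Igf2bp2 and Igf2bp3 correlated at 0.87 over the 8 fetal liver arrays and at -0.92 over the 8 bone marrow arrays. The points share 2 stages and a common reference.

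The genes whose pattern over the 16 arrays was most like a member's differed between members, among 12521 genes with a symbol. Among the nearest to Igf2bp1 were Fgd5, Peg3 and Lin28b (r = 0.990 each), and Fstl1 reached 0.982. For Igf2bp2 they were Ccdc34 (0.973), Akap5 (0.970), Larp6 (0.969), Grifin (0.968) and Rnase4 (0.966). For Igf2bp3 they were Mettl6 (0.966), Gla (0.964), Rapgef5 (0.960), Gcat (0.952) and Med6 (0.951). A correlation above 0.9 was reached by 137 genes with Igf2bp1, 74 with Igf2bp2 and 35 with Igf2bp3.

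Lin28b, the let-7 blocker, was like the brightest Igf2bp1 probe well above background only in the fetus. Its log2 ratio was 2.96, 2.66, 2.79 and 2.61 in fetal liver Fr.B/C and 2.28, 2.26, 2.80 and 2.64 in fetal liver Fr.A. In bone marrow it was -0.71, -0.67, -0.97 and -1.27 in Fr.B/C and -0.57, -0.85, -1.09 and -1.10 in Fr.A, and no bone marrow array had it well above background. Fetal liver was at least 12.4-fold higher in Fr.B/C and at least 10.4-fold in Fr.A (limma adjusted p = 1.16e-10 and 3.92e-10). Lin28b heads a list of Lin28 proteins and let-7 processing factors. Of its 12 tested members (16 listed), 2 were higher in fetal liver and 1 lower in Fr.A, and 2 were higher and 2 lower in Fr.B/C, with medians of 0.02 and 0.08 against -0.015 and 0.015 over all genes, of which 29.6% and 28.6% were called. Tarbp2, a Dicer partner, was the other one higher (0.62 ± 0.13 in Fr.A cells and 0.68 ± 0.13 in Fr.B/C cells), and the Argonaute gene Ago4 was lower (-0.48 ± 0.09 and -0.39 ± 0.09). Tut7, a uridyltransferase that tags let-7 precursors, was lower in fetal Fr.B/C (-0.49 ± 0.13). It was the list's 1 member of 12 tested to be called with stage, where 22.8% of all genes were called in fetal liver and 32.4% in bone marrow. Tut7 fell by 1.13 ± 0.13 in fetal liver and 0.64 ± 0.13 in bone marrow (limma adjusted p = 1.14e-05 and 0.00142).

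Transcripts that an IGF2BP binds or stabilises in other systems differed in both directions. Of 18 tested (22 listed), 5 were higher and 4 lower in fetal liver in each fraction, with medians of 0.08 in Fr.A cells and -0.11 in Fr.B/C cells, beside 29.6% and 28.6% of all genes called. In Fr.A the cyclin gene Ccnd1 was higher by 2.34 ± 0.08, the chromatin protein gene Hmga2 by 2.03 ± 0.20 and Igf2 itself by 0.81 ± 0.11, besides Lin28b, while the metalloprotease gene Mmp9 was lower (-2.39 ± 0.20, limma adjusted p = 3.39e-05 or below for each). In Fr.B/C Hmga2 stood 3.81 ± 0.20 higher in fetal liver (limma adjusted p = 1.32e-09), and the difference of Ccnd1 was 0.13 ± 0.08 (limma adjusted p = 0.269). Igf2 was at least 1.37-fold higher and Mmp9 at least 4.02-fold lower there, each being above background in 1 tissue only, and Ccnd3 was lower (-1.08 ± 0.13).

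With stage, 2 of the bound transcripts were higher and 5 lower in fetal liver, and 5 were higher and 4 lower in bone marrow, with medians of 0.01 and 0.06 against 0.002 and -0.039 over all genes, of which 22.8% and 32.4% were called. Hoxa9 fell in both (-1.32 ± 0.12 in fetal liver and -1.45 ± 0.12 in bone marrow). The interaction called 2 of the 18 tested members, Ccnd1 and Hmga2, where 7.48% of all genes were called. Ccnd1 had log2 ratios of -3.38, -3.38, -3.21 and -3.32 in fetal liver Fr.B/C, against 0.07, -0.12, -0.04 and -0.07 in fetal liver Fr.A. In bone marrow it had -3.43, -3.63, -3.25 and -3.49 in Fr.B/C, against -2.20, -2.42, -2.45 and -2.45 in Fr.A, and its interaction was -2.21 ± 0.11 (limma adjusted p = 8.65e-08). Ccnd1, like Igf2bp2, was highest in fetal liver Fr.A and fell in both tissues, more in the fetus. Hmga2 fell more in bone marrow (-4.08 ± 0.20) than in fetal liver (-2.29 ± 0.20), with an interaction of 1.78 ± 0.28 (limma adjusted p = 0.00105).

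**Figure D5:**
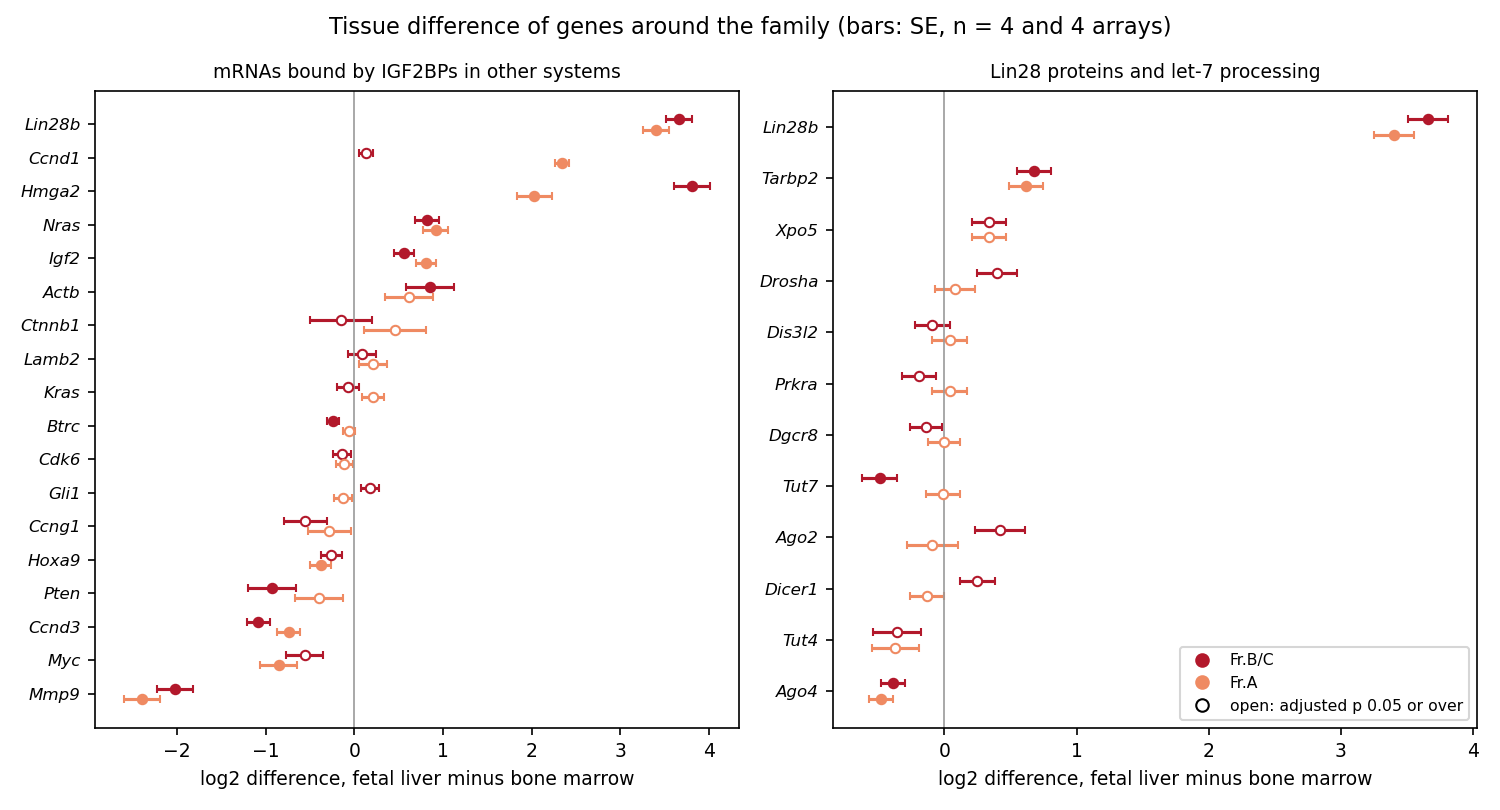
Log2 difference of fetal liver minus bone marrow (x axis, bars are SE) in Fr.B/C and Fr.A for the tested mRNAs that IGF2BPs bind in other systems (left) and the Lin28 and let-7 processing genes (right), filled where the adjusted p was under 0.05. Hmga2 lies at 3.81 in Fr.B/C and 2.03 in Fr.A, Lin28b at 3.66 and 3.40, and Ccnd1 lies at 0.13 in Fr.B/C and 2.34 in Fr.A.

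Arid3a, the transcription factor of the series title, had its groups in the same order as Igf2bp2. Its log2 ratio was 1.05, 1.09, 1.30 and 1.24 in fetal liver Fr.B/C, against 2.57, 2.10, 1.99 and 1.98 in fetal liver Fr.A. In bone marrow it was -1.04, -0.91, -0.82 and -0.90 in Fr.B/C, against 0.26, 0.39, 0.04 and 0.17 in Fr.A. No group overlapped another, where 24.1% to 39.6% of all genes had groups apart, depending on the pair.

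Some proteins are found in the same ribonucleoprotein particles as IGF2BPs. Of 9 of their genes tested, 2 were higher in fetal liver Fr.A, the helicase gene Dhx9 (0.88 ± 0.17) and the double-stranded RNA binder Stau1 (0.42 ± 0.11), and 1 was lower in Fr.B/C, Stau1 (-0.46 ± 0.11), with medians of 0.23 and -0.21 and 29.6% and 28.6% of all genes called. With stage 2 were lower in fetal liver, and 2 were higher and 1 lower in bone marrow, where 22.8% and 32.4% of all genes were called. Stau1 fell at the Fr.B/C stage in fetal liver (-0.51 ± 0.11) and rose in bone marrow (0.36 ± 0.11), the same signs as Igf2bp3, with an interaction of -0.87 ± 0.15 (limma adjusted p = 0.00227). Syncrip, an RNA-binding partner of Igf2bp1, fell in both tissues, by 0.85 ± 0.18 in fetal liver and 1.07 ± 0.18 in bone marrow (limma adjusted p = 0.00264 and 0.000248), and Fmr1 rose in bone marrow (0.65 ± 0.15).

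Markers of other cell types moved with some of these comparisons. Of all genes, 12.3% were higher and 17.3% lower in fetal liver against bone marrow for Fr.A, 13.9% and 14.7% for Fr.B/C. With stage, 10.1% were higher and 12.8% lower in fetal liver, and 13.5% and 18.8% in bone marrow. Erythroid markers were higher in fetal liver for 11 of 13 tested in each fraction, with summed signals of 7230 to 25900 in fetal liver Fr.B/C and 6310 to 25700 in fetal liver Fr.A, against 2010 to 2600 in bone marrow Fr.B/C and 2890 to 3430 in bone marrow Fr.A. Klf1, an erythroid transcription factor gene named after its values were seen, was at 1.95, 2.00, 3.55 and 3.73 on fetal liver Fr.A arrays 1 to 4, against -0.06, 0.06, 0.29 and 0.41 in bone marrow Fr.A, so the fetal arrays 3 and 4 were highest. Like Klf1, the Igf2bp genes were higher in fetal liver Fr.A than in bone marrow Fr.A in both sets of arrays. The difference was 3.33 for Igf2bp1, 2.97 for Igf2bp2 and 3.93 for Igf2bp3 on arrays 1 and 2, and 3.48, 2.95 and 4.53 on arrays 3 and 4. A split by array set therefore does not tell the Igf2bp genes and erythroid content apart. Of 7 hepatocyte markers tested, 2 were higher and 2 lower in fetal liver Fr.A and 3 higher and 1 lower in Fr.B/C. All 13 on the array summed to 1100 to 1200 in fetal liver Fr.B/C and 1800 to 1890 in fetal liver Fr.A, against 1150 to 1240 and 2030 to 2540 in the bone marrow fractions. Of these 13, 5 in fetal liver Fr.B/C and 6 in fetal liver Fr.A were well above background on at least 3 of 4 arrays. In bone marrow 3 were in Fr.B/C and 6 in Fr.A. Afp was so on all 4 arrays of every group. The albumin gene Alb, named outside the rule for named genes, did not pass the filter for testing. It was well above background on 2 of 16 arrays, both fetal liver Fr.A. B-lineage markers were lower in fetal liver for 7 of 13 tested in Fr.B/C and 3 of 13 in Fr.A. From Fr.A to Fr.B/C 8 of 13 were higher in each tissue, while 3 were lower in fetal liver and 1 in bone marrow. With stage, 9 of 13 stem and progenitor markers were lower in each tissue, with sums of 4040 to 5480 in Fr.B/C and 22900 to 25500 in Fr.A of fetal liver, and of 2380 to 2660 and 16200 to 23400 in bone marrow. Between tissues, 4 of them were higher and 2 lower in fetal liver Fr.A, and 4 and 1 in Fr.B/C. Myeloid markers were lower with stage for 8 of 14 in fetal liver and 4 of 14 in bone marrow. Those of NK, T and plasmacytoid dendritic cells were lower for 7 of 15 and 10 of 15, with 1 higher in fetal liver. Between tissues, 4 myeloid markers were higher and 5 lower in fetal liver Fr.A, and 1 and 6 in Fr.B/C. In Fr.A they summed to 50100 to 57000, against 93700 to 138000 in bone marrow. In Fr.B/C the sums were 6360 to 10500 against 32200 to 52800. Of the NK, T and dendritic cell markers, 2 were higher and 7 lower in Fr.A, and 1 and 5 in Fr.B/C. The part of these cells in the Igf2bp differences was not tested.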

How the data were processed

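Amplified RNA of 16 sorted samples was hybridised with the reference on 16 Agilent mouse arrays, 1 to a slide, the sample in Cy5 on arrays 1 and 3 and in Cy3 on arrays 2 and 4, per the labels. Feature Extraction 8.5.1.1 produced the deposited scanner files, which give mean, background and processed signals as intensity, per the file headers. They also hold the scanner's own log10 ratio of the dyes, per the file headers, which served to check direction. The authors deposited normalized log2 ratios as well, with array medians from -0.00726 to 0.0201 and correlations of 0.951 to 0.965 with the ratios computed here. The submitters' processing notes name limma. How that table was normalized is not stated there.

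Here limma 3.58.1 (R 4.3.3) corrected background by normexp with an offset of 50, which compresses dim probes, and normalized each array by loess. Ratios were turned to sample over reference. Control and outlier spots were dropped, saturated spots stayed and replicate spots were averaged. A probe needed a sample signal well above background on at least 3 of 4 arrays in some group and at least 12 usable arrays (27522 of 41174 probes). The brightest such probe stood for its gene. Names came from the accession, clone name or description in the files through RefSeq's symbol table, giving 14294 of 21660 features a symbol. B4galnt2, with Igf2bp1 as an old synonym, was no member.

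The model had a mean per group and a term for dye, over all 16 arrays, with empirical Bayes moderation. Adjusted p-values are Benjamini-Hochberg over all genes (over all kept probes for a gene's other probes), and a call means a value under 0.05. For a gene that no array of 1 group showed well above background, the fold is given as "at least". This bound takes as dim level the larger of the gene's signal and the faintest signal well above background, on the sample channel and on the ratio scale, and keeps the lower result. The bound is a difference of group means that leaves out sampling error, and it can carry dye bias.

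Per the labels each sort gave a Fr.A and a Fr.B/C sample. Deviations of same-numbered samples from the group means correlated at 0.25 to 0.52 across genes within a tissue, and the numbers were taken to pair them there. Same-numbered Fr.B/C samples of fetal liver and bone marrow, which share no animals, also correlated, at 0.28 to 0.48. Fr.A samples of the 2 tissues did not, at -0.26 to 0.15. The correlation alone therefore does not show shared sorts. If numbers mark separate sorts of pooled animals, p-values measure the spread between sorts. Named genes are the members and their probes, Lin28b, Hmga2 and Arid3a, up to 4 genes of each list per comparison by adjusted p, all let-7 processing and particle genes that passed, and 5 nearest genes per member, of which 1 is not reported here. The members and lists were chosen with earlier results of these data known. In simulated data of 21374 genes for fetal liver minus bone marrow Fr.A, 95 of 100 changes of 1 (log2) and 100 of 100 changes of 2 were recovered, with 12 false calls. The simulated noise was independent between arrays, without the likeness within array sets seen here, so these counts may not hold for the real arrays. Alternatives covered background, normalization, filter, probe choice, dye, pairing, scan date and each array left out.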

Additional observations from a re-analysis of the deposited data

Results flagged for a closer look

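Igf2bp2 and Igf2bp3 had steps from Fr.A to Fr.B/C that differed between fetal liver and bone marrow by the test of the difference itself, at -1.74 for Igf2bp2 and -2.0 for Igf2bp3 (log2, limma). One array stood apart from its group: fetal liver Fr.A array 2 had 1.96 on the Igf2bp1 probe A_52_P620742, where the other 3 arrays of the group had 2.44 to 2.49. It was the only such array among 28 groups of 4 tested, and chance sets about 1 in 20 groups apart in this way.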

How the results depend on the processing

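In the tissue comparisons the 3 members kept direction and call under all 35 alternatives run. In Fr.A Igf2bp1 ranged from 3.08 to 4.56, Igf2bp2 from 2.78 to 3.40 and Igf2bp3 from 3.93 to 4.96, and in Fr.B/C from 3.10 to 4.52, 0.93 to 1.83 and 2.03 to 2.49. The authors' deposited table gave 4.33, 3.33 and 4.86 in Fr.A and 4.29, 1.76 and 2.47 in Fr.B/C. Both stage steps of Igf2bp2 kept their call under 37 alternatives. Igf2bp3 lost its calls under 3 alternatives. Fits on arrays 1 and 2 alone and on arrays 3 and 4 alone were added after seeing the data. They measure only the spread within a set, which may be technical, and there Igf2bp3 kept its calls. With the sample in Cy5 only, its bone marrow step was 0.90, its fetal liver step -0.99 and its interaction -1.88 (limma adjusted p = 0.15, 0.151 and 0.257). With the sample in Cy3 only these were 0.98, -1.13 and -2.11 (0.0654, 0.0629 and 0.134), and the interaction of Igf2bp2 was -1.70 (0.0692). With array sets averaged they were 0.94, -1.06 and -2.0 (0.102, 0.103 and 0.171). Over all alternatives the adjusted p of Igf2bp3 ran from 2.93e-05 to 0.15 in the bone marrow step, from 2.77e-06 to 0.151 in the fetal liver step and from 1.05e-05 to 0.257 in the interaction. That of the Igf2bp2 interaction ran from 6e-07 to 0.0692.

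With the sort as a replicate block, the fetal liver step of Igf2bp1 passed at 0.20 (limma adjusted p = 0.0429, range over alternatives 0.0429 to 0.814) and the interaction called 3533 genes. With the number as a replicate block it called 2584. No other call of a member changed under either block. The uncalled interaction of Igf2bp1 turned to -0.04 with processed signals and with offset 16, -0.06 with median centring, -0.03 in the authors' deposited table, and ran from -0.03 to 0.18 with 1 array left out, with the lowest value coming without fetal liver Fr.B/C array 3. No call of a member was lost by leaving out an array. The cause of these changes was not tested.

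Counts of genes called moved most in the interaction, which called 1620 genes as reported: 1070 with processed signals, 910 with scaling between arrays, 2934 with scan date as a random block, and, in alternatives added after seeing the data, 3235 with it as a fixed block, 2809 on the sample channel alone and 718 on arrays 1 and 2. Arrays 3 and 4 alone gave 10056 in Fr.A between tissues, 9164 in the fetal liver step and 6792 in the interaction. Median centring gave 4050 in Fr.A between tissues, 2639 in the fetal liver step, 4105 in the bone marrow step and 422 in the interaction. In the order Fr.A between tissues, Fr.B/C between tissues, fetal liver step, bone marrow step and interaction, Cy5 only gave 2267, 1649, 1680, 2687 and 34, Cy3 only 2079, 1516, 1274, 2688 and 11, and averaged array sets 2435, 1930, 1781, 3283 and 46. A slide block could not be run with 1 array to a slide. Igf2bp1 in bone marrow is limited by background.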

Other observations

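Some genes of insulin-like growth factor signalling, the pathway that gave the family its name, were called between the tissues. Of 11 tested (15 listed), 4 were higher in fetal liver Fr.B/C and 0 lower, and 3 were higher and 1 lower in Fr.A, with medians of 0.15 and 0.14 and 28.6% and 29.6% of all genes called. The receptor adaptor Grb10 was higher by 2.33 ± 0.15 in Fr.B/C and 2.25 ± 0.15 in Fr.A, and Igf2r, the receptor that clears Igf2, by 1.61 ± 0.11 and 1.30 ± 0.11 (SE, n = 4 and 4 arrays, limma adjusted p = 2.45e-07 or below for each). Igf1r was higher in Fr.B/C alone by the threshold (0.75 ± 0.14, against 0.14 ± 0.14 in Fr.A), a difference whose interaction did not pass (0.61 ± 0.20, limma adjusted p = 0.0739). The binding protein gene Igfbp7 was lower in fetal liver Fr.A (-2.18 ± 0.15) and fell with stage in bone marrow (-2.40 ± 0.15).

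Of 13 tested writers, erasers and readers of N6-methyladenosine (15 listed), 1 was higher in fetal liver Fr.A, Rbm15 (0.42 ± 0.12), and in Fr.B/C 2 were higher, Rbm15 and Rbm15b (the second named after its values were seen), and 3 lower, Mettl14, Ythdf1 and Ythdf3, beside the same shares of all genes. The methyltransferase subunit gene Mettl14 fell with stage in both tissues, by 0.58 ± 0.11 in fetal liver and 0.35 ± 0.11 in bone marrow (limma adjusted p = 0.000846 and 0.0204).

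Among 666 kept probes whose reference channel was well above background on no bone marrow array, 2 (0.300%) had it well above background on all 8 fetal liver arrays. Both are Igf2bp1 probes. The 666 probes were not matched by their sample signal in fetal liver, so this share is no like-for-like comparison for the Igf2bp1 probes.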
